A study of Mus musculus with 48 samples.

Results

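The transcripts described here encode 10 regulators of G-protein signalling (RGS proteins), read from the rows of 48 count files that map to Rgs1, Rgs2, Rgs3, Rgs4, Rgs5, Rgs10, Rgs14, Rgs16, Rgs18 and Rgs19, out of 56748 gene identifiers. Bulk RNA-seq was available for 3 tissues of male mice: the liver, the brown fat (brown adipose tissue, BAT) and the white fat around the epididymis (eWAT). For 12 weeks all mice ate a Western diet, which holds 0.2% cholesterol and 21% milk fat. In each tissue, 4 hepAGT+/+ and 4 hepAGT-/- libraries came from room temperature (RT, 20 to 22 °C) and 4 of each genotype from thermoneutrality (TN, 30 °C), giving 12 groups of 4. By the study's title, the hepAGT-/- mice lack angiotensinogen in hepatocytes, and the hepAGT+/+ mice are their littermates. The labels give neither the Cre driver nor the floxed allele. The 10 genes were selected on measured values, with earlier results of these data in view: the TN minus RT changes of Rgs1 in hepAGT-/- BAT and of Rgs2 in hepAGT-/- liver were among those results. Those 2 changes are given as descriptions without a test. Which values led to the other 8 genes is not recorded, so their p-values set a difference against the spread between mice and are not independent evidence. Nor are the p-values of other Rgs1 and Rgs2 comparisons that share those hepAGT-/- libraries.

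RGS proteins speed up the hydrolysis of GTP on activated G-protein alpha subunits, and so shorten the signal that a G-protein-coupled receptor sends. Adipocytes, hepatocytes, vessel walls and leukocytes all use such receptors, among them the beta-adrenergic receptors that drive heat production in brown fat and the angiotensin receptors, whose ligand is cut from angiotensinogen. The R4 subfamily (Rgs1, Rgs2, Rgs3, Rgs4, Rgs5, Rgs16 and Rgs18) consists mostly of small proteins with little more than the RGS domain. Rgs19, also known as GAIP, belongs to the RZ subfamily, and Rgs10 and Rgs14 belong to the R12 subfamily. RGS proteins of these subfamilies act mainly on Gi and Gq alpha subunits, and Rgs2 prefers Gq, the subunit used by the main angiotensin receptor.

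Of the 10 genes, 6 lie on chromosome 1 in the GENCODE M21 annotation of GRCm38. Rgs2 (ENSMUSG00000026360, chr1:143999338-144004161), Rgs1 (ENSMUSG00000026358, chr1:144242296-144249242) and Rgs18 (ENSMUSG00000026357, chr1:144752683-144775435) share a cluster with Rgs13 and Rgs21, all on the minus strand. Rgs5 (ENSMUSG00000026678, chr1:169655501-169695813, plus strand) and Rgs4 (ENSMUSG00000038530, chr1:169741477-169747642, minus strand) are neighbours 45.7 kb apart. Rgs16 (ENSMUSG00000026475, chr1:153740349-153745468) lies next to Rgs8. Rgs3 (ENSMUSG00000059810, chr4:62559847-62704001), Rgs10 (ENSMUSG00000030844, chr7:128373621-128418758), Rgs14 (ENSMUSG00000052087, chr13:55369732-55384687) and Rgs19 (ENSMUSG00000002458, chr2:181688419-181693977) lie on other chromosomes. Annotated antisense genes overlap Rgs3 (Gm11209) and Rgs16 (Gm28513), and Gm15503 overlaps Rgs10 on the same strand. Whether reads were counted by strand is not given in the sources used here, so reads of these overlaps cannot be told apart.

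The 250 bases before the transcription start are shown for Rgs2, Rgs4 and Rgs16, 3 of the members whose differences between groups are described in detail. They come from RefSeq on GRCm38.p6, whose promoter table holds 7 of the 10 members, and are written 5′ to 3′ on the strand of the gene. Capitals mark TGACG on either strand, the core of the cAMP response element (CRE), the sequence through which cAMP-raising receptors act on many genes.
Rgs2 (chr1:144004150-144004399, minus strand): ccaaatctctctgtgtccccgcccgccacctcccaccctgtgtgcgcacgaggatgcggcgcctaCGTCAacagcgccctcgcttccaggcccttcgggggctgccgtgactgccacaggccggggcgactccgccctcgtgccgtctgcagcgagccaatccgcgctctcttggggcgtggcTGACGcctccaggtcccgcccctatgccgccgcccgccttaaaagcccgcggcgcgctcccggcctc
Rgs4 (chr1:169747643-169747892, minus strand): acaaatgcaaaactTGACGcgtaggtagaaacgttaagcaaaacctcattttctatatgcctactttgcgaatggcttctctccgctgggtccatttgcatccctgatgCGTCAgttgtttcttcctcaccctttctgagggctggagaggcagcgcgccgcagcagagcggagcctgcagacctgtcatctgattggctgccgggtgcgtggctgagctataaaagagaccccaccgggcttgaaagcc
Rgs16 (chr1:153740103-153740352, plus strand): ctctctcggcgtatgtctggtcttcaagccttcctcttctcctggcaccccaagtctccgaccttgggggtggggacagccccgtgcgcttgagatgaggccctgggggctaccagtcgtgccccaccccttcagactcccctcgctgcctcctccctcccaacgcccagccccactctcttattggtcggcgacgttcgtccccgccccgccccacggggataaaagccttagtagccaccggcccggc
The windows of Rgs2 and Rgs4 hold the core on both strands, and those of Rgs16 and of the other 4 members in the table do not hold it. Among 32851 promoter windows of the same length, 17.8% hold TGACG on either strand. The palindrome TGACGTCA, the full CRE, is in 1.55% of the windows and in none of the members'. These matches describe letters and were not tied to any measurement here.

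Libraries held 23.7 to 43.7 M counts (M, mega), and the median was lowest in liver (29.9 M) and highest in eWAT (34.5 M), with 30.7 M in BAT. Among genes with 1 to 20 counts, 73.1% to 77.6% of the values in a library were even numbers, and no counting interval is given here because the counting unit is not stated. Levels of genes are in CPM, counts in units of 1 per M counts of the library. That library size is the total over the filtered genes times a TMM scaling factor, while marker sums use plain library totals. Agt, the deleted gene, read 368 ± 75.5 CPM (mean ± SD, n = 4) in hepAGT+/+ liver at RT and 167 ± 26.7 in hepAGT-/- liver. At TN it read 410 ± 86.5 against 167 ± 33.8, so counts on the gene remained in hepAGT-/- liver. Tissue labels fitted their defining markers: the summed level of 5 hepatocyte transcripts (Alb, Apoa1, Ttr, Apoc3 and Serpina1c) was 46484 to 83605 CPM in liver, and 5 brown adipocyte transcripts including Ucp1 summed to 2278 to 10901 CPM in BAT and at most 18.9 CPM in eWAT. Hepatocyte transcripts were also present in adipose libraries, at 4.27 to 2260 CPM in BAT and 24.3 to 4093 CPM in eWAT. Skeletal muscle transcripts summed to 1.19 to 5923 CPM in BAT. In eWAT replicate 18 of the hepAGT+/+ RT group, 5 epididymis transcripts summed to 178 CPM. Member counts were also recomputed without the libraries over 1000 CPM of hepatocyte or skeletal muscle markers.

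Rgs16 was the leading RGS transcript in liver, and Rgs5 in both fat tissues. Levels between genes were compared per kilobase of exon, as CPM per kb over the 16 libraries of a tissue. The length counts every base that lies in any annotated exon of a gene. For Rgs1 it equals the whole span of the gene (6947 bases), and for Rgs3 it is 10801 bases. Such lengths can exceed that of the transcript made and lower the level per kb, so the order of members depends on them. In liver, Rgs16 led with 118 ± 71.9 CPM per kb, and its lowest library lay above the highest library of every other member. Rgs16 is known in liver as a gene whose transcript swings with feeding and time of day. Rgs5, a marker of pericytes, the contractile cells on small vessels, came next with 6.01 ± 2.39 CPM per kb. The remaining 8 members followed at 1.80 to 0.0292 CPM per kb, each with a range that overlapped that of its neighbour in the order.

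In BAT, Rgs5 led with 95.9 ± 21.5 CPM per kb and Rgs2 followed with 34.9 ± 20.9, with overlapping ranges. The lowest Rgs2 library (8.51 CPM per kb) lay just above the highest library of Rgs3 (8.45), a member known in heart, vessels and lymphocytes. Rgs3, Rgs19, Rgs4, Rgs10, Rgs16, Rgs18, Rgs1 and Rgs14 followed from 5.83 down to 0.151 CPM per kb, with overlapping ranges between neighbours. In eWAT, Rgs5 again led, with 30.4 ± 8.80 CPM per kb and no overlap with Rgs19 (12.2 ± 1.37). Rgs10, known in macrophages, microglia and platelets, came next with 10.3 ± 2.81 CPM per kb, followed by Rgs2, Rgs3, Rgs18, Rgs4, Rgs16, Rgs14 and Rgs1, from 5.25 to 0.489.

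**Figure D1:**
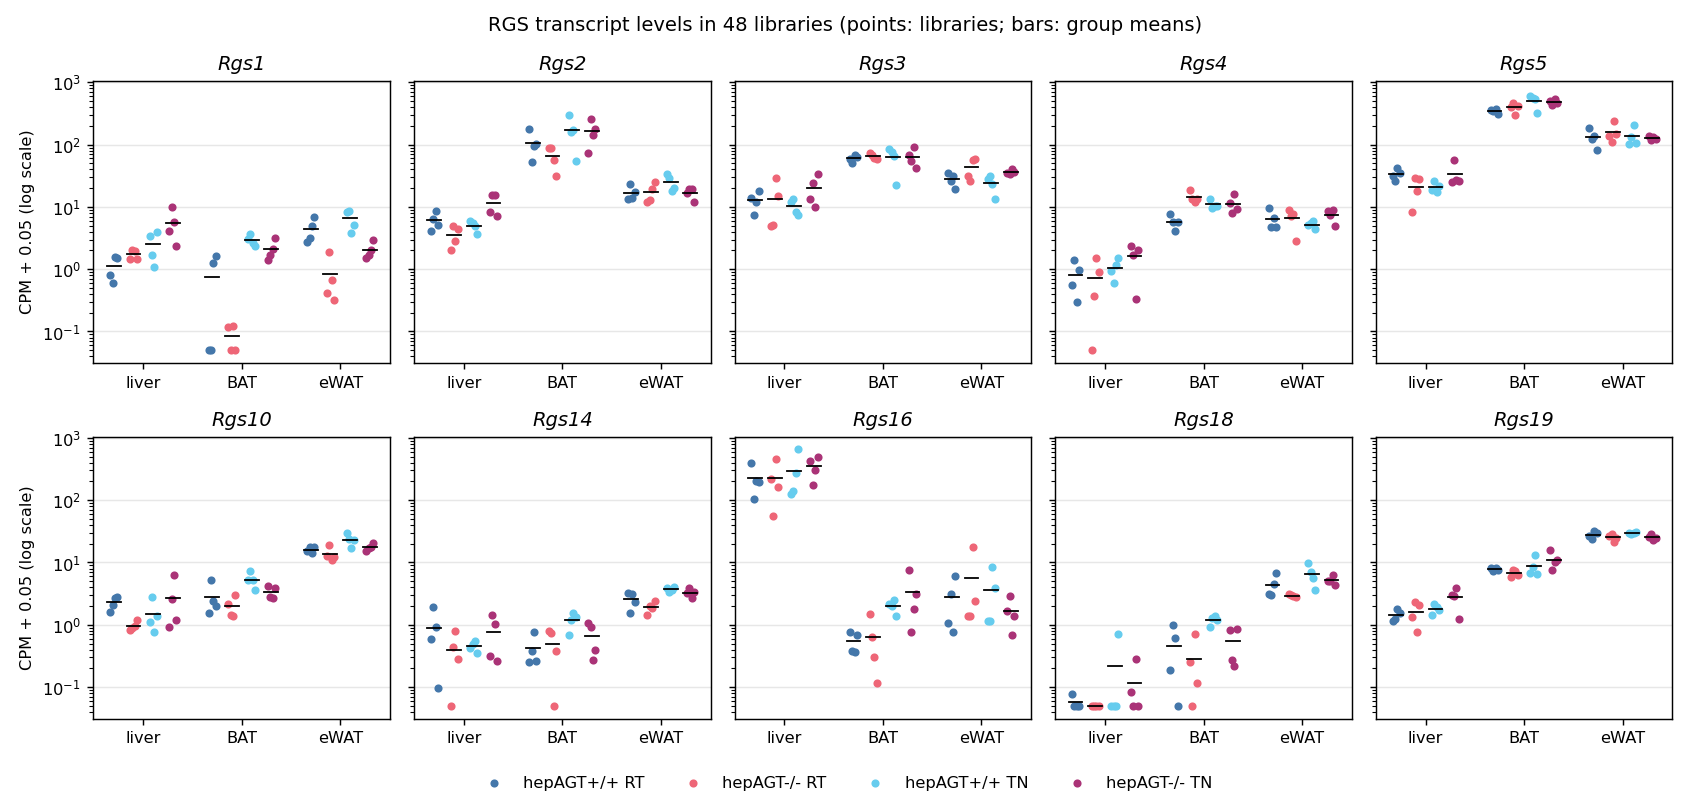
Level of each RGS transcript in every library, as TMM-scaled CPM plus 0.05 on a log axis, by tissue, with colours for genotype and housing and black bars for the means of 4 libraries. All liver libraries lie above all adipose libraries for Rgs16 (at least 55.1 against at most 17.5 CPM), all BAT libraries lie above the others for Rgs5, and Rgs18 is at 0 in 12 of 16 livers.

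One fit over all 48 libraries gave the tissue contrasts, averaged over genotype and housing (edgeR quasi-likelihood test, two-sided, Benjamini-Hochberg adjustment over 21910 genes). Here 9 of 10 members passed the threshold of an adjusted p under 0.05 between BAT and liver, against 68.6% of all genes, 9 between eWAT and liver, against 73.8%, and 9 between BAT and eWAT, against 60.3%. Rgs5 was 3.90 ± 0.16 (log2, SE) higher in BAT than in liver, and Rgs2 4.21 ± 0.23 higher. Rgs4, known in neurons and vascular smooth muscle, was 3.30 ± 0.27 higher in BAT than in liver and 1.07 ± 0.24 higher in BAT than in eWAT. Rgs16 was lower by 7.97 ± 0.53 in BAT and by 7.00 ± 0.50 in eWAT than in liver, and its BAT minus eWAT difference of -0.98 ± 0.44 missed the threshold (adjusted p 0.0549). It passed with DESeq2 (0.0272), with RLE scaling (0.0477) and in 10 of the fits that left out 1 library (0.0214 to 0.0450).

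Rgs10, Rgs14, Rgs18 and Rgs19 were higher in eWAT than in liver and than in BAT. Rgs10, Rgs14 and Rgs18 were 2.83 ± 0.21, 1.83 ± 0.37 and 6.89 ± 0.65 higher on the log2 scale in eWAT than in liver, and Rgs19 was 3.39 ± 0.14 higher. Against BAT, the same 4 transcripts were higher in eWAT by 2.07, 1.82, 2.80 and 1.28 on the log2 scale. Rgs14, a scaffold that also binds Gi alpha through a GoLoco motif, read 0.640 ± 0.434 CPM in BAT and 0.570 ± 0.497 CPM in liver, a contrast of 0.01 ± 0.39. Rgs1, a regulator of B and T lymphocyte migration, did not pass between eWAT and liver (-0.32 ± 0.34, adjusted p 0.396). A set of 5 macrophage markers summed to 509 to 1773 CPM in eWAT and 39.4 to 426 CPM in BAT, and 5 platelet and megakaryocyte markers to 28.0 to 61.5 and 3.57 to 15.7 CPM. In whole tissue, fewer cells of a type and less RNA per cell cannot be told apart.

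In liver, Rgs2 was the member that passed the test between genotypes, under thermoneutral housing. At TN, Rgs2 read 5.91, 5.42, 4.91 and 3.65 CPM in hepAGT+/+ livers and 8.14, 15.3, 15.6 and 7.12 CPM in hepAGT-/- livers. All 4 hepAGT-/- livers lay above all 4 hepAGT+/+ livers, and replicates 4 and 5 were the highest. At RT the hepAGT-/- mean was the lower: hepAGT+/+ livers held 4.02, 6.42, 8.57 and 5.14 CPM and hepAGT-/- livers 2.01, 4.94, 2.83 and 4.31 CPM, with overlap.

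The genotype difference of Rgs2 at TN was 1.22 ± 0.32 (log2, SE), with an adjusted p of 0.0388 by edgeR over 17594 genes. It was the 1 call among the 9 members tested, against 3.18% of all genes, and the 1 member without overlap, against 12.5%. Its hepAGT-/- livers are part of the temperature change that led to the choice of Rgs2, so this call is not independent evidence. The call was lost when any one of 6 TN libraries was left out: hepAGT-/- replicate 4 (adjusted p 0.146) or 5 (0.109), or hepAGT+/+ replicate 1 (0.0660), 24 (0.0957), 6 (0.0865) or 7 (0.0846). The log2 difference stayed between 1.03 and 1.39 in all 21 alternatives. At RT the difference was -0.78 ± 0.32 (adjusted p 0.382), and the change of the genotype effect with housing was 2.00 ± 0.45, a value that holds the hepAGT-/- temperature change described next and is given without a test.

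Between housing temperatures, Rgs2 in hepAGT-/- liver had a mean of 3.52 ± 1.34 CPM at RT and 11.5 ± 4.55 CPM at TN, without overlap (7.25% of all genes). The fitted log2 change was 1.71 ± 0.33 (0.114% of all genes passed in that contrast). This is a value that led to the choice of Rgs2, and it shares the 4 TN livers with the genotype comparison above. In hepAGT+/+ liver the change was -0.28 ± 0.32 (adjusted p 0.920). Macrophage transcripts (Adgre1, Cd68, Csf1r, Lyz2 and Mrc1) were read in the same livers. Their sum was 176, 203, 363 and 388 CPM in replicates 2, 22, 4 and 5, against 132 to 164 CPM in hepAGT+/+ TN livers and 111 to 177 CPM in hepAGT-/- RT livers. T cell markers summed to 12.4 and 24.5 CPM in replicates 4 and 5, and to 5.38 and 3.97 CPM in replicates 2 and 22. Of the macrophage markers, Lyz2 passed the threshold between genotypes at TN. Sums of 4 other lists were also higher in hepAGT-/- than in hepAGT+/+ TN livers without overlap: B cell markers at 7.65 to 15.4 against 4.38 to 6.77 CPM, plasma cell markers at 21.2 to 50.4 against 11.3 to 20.4, neutrophil markers at 6.86 to 13.6 against 2.87 to 5.92, and platelet and megakaryocyte markers at 4.22 to 6.23 against 1.62 to 3.39. Of those lists, S100a8 of neutrophils and Ighm of plasma cells passed. At RT, B cell sums were also higher in hepAGT-/- livers without overlap (4.50 to 7.47 against 3.19 to 4.27 CPM). So were platelet and megakaryocyte sums (5.33 to 6.00 against 2.24 to 3.92 CPM), while plasma cell and neutrophil sums overlapped there. The part of all these cells in the Rgs2 result was not tested.

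**Figure D2:**
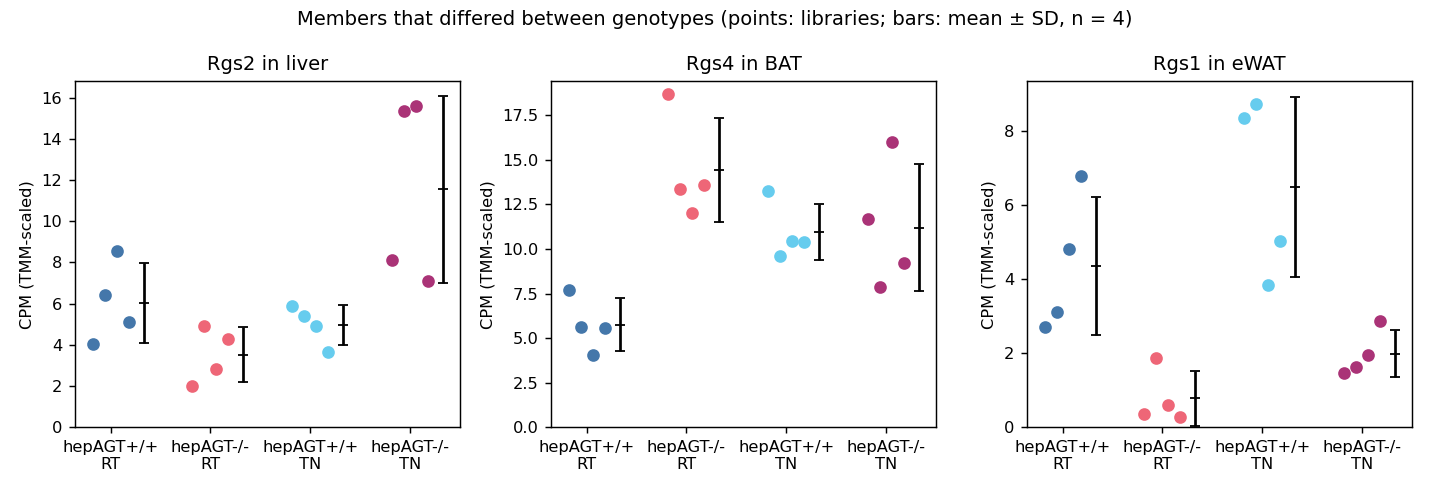
CPM of Rgs2 in liver, Rgs4 in BAT and Rgs1 in eWAT, one point per library, with mean ± SD (n = 4) to the right of each group. The hepAGT-/- TN livers lie above the hepAGT+/+ TN livers for Rgs2, the hepAGT-/- RT samples lie above the hepAGT+/+ RT samples for Rgs4 in BAT, and both hepAGT-/- groups lie below their hepAGT+/+ controls for Rgs1 in eWAT.

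Other members did not pass in liver with edgeR. No member passed between genotypes at RT, against 0.0853% of all genes, or between temperatures in hepAGT+/+ liver, against 0.0227%. At an unadjusted p under 0.05 these counts were 2 and 1 of 9, against 10.2% and 7.25% of all genes, and DESeq2 called none either. At TN, the 9 tested members had a median genotype difference of 0.81, while the median over all genes was 0.05. This contrast holds the hepAGT-/- livers behind the choice of Rgs2. The leukocyte and platelet marker sums given above were also higher in those livers, so nothing is read from the median. Rgs1 read 1.05 to 3.92 CPM in hepAGT+/+ and 2.34 to 9.85 CPM in hepAGT-/- livers at TN (1.14 ± 0.47, adjusted p 0.196). Rgs1 was highest in replicate 4, with 9.85 CPM. Its TN minus RT change in hepAGT-/- liver was 1.70 ± 0.48, without overlap, where groups of 7.25% of all genes did not overlap. That change missed the threshold with edgeR and passed it with DESeq2. Rgs10 was lower in every hepAGT-/- RT liver (0.777 to 1.15 CPM) than in the hepAGT+/+ RT livers (1.55 to 2.75 CPM), with 24 to 86 counts, a difference of -1.29 ± 0.56 and an adjusted p of 0.413. Groups of 5.83% of all genes did not overlap there. Rgs5 was lower in every hepAGT+/+ liver at TN (17.3 to 26.0 CPM) than at RT (26.3 to 41.8 CPM) and did not pass. In that contrast, 3.93% of all genes did not overlap.

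Rgs16 spread widely between livers of 1 group. Its CPM ran from 103 to 399 in hepAGT+/+ and from 55.1 to 461 in hepAGT-/- livers at RT, and from 126 to 654 and from 175 to 499 at TN. The 4 groups overlapped throughout, and the fitted differences of 0.01 to 0.65 on the log2 scale had SEs near 0.68. The labels do not give the hour or feeding state at collection. Rgs18, known in platelets and megakaryocytes, had 0 counts in 12 of 16 livers and did not pass the filter on low counts there; its highest liver, hepAGT+/+ TN replicate 24, had 22 counts.

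In BAT, Rgs4 was the member that passed between genotypes with edgeR. It was higher in hepAGT-/- than in hepAGT+/+ BAT at RT: hepAGT+/+ libraries read 7.69, 5.63, 4.08 and 5.58 CPM, and hepAGT-/- libraries read 18.7, 13.4, 12.0 and 13.6 CPM. Every hepAGT-/- library lay above every hepAGT+/+ library. The log2 difference was 1.33 ± 0.24 with an adjusted p of 0.0499 by edgeR over 18032 genes, the 1 call among 10 members against 0.0887% of all genes, and the 1 member without overlap against 9.26%. At TN the values were 13.2, 9.63, 10.5 and 10.4 CPM in hepAGT+/+ and 11.7, 7.86, 16.0 and 9.24 CPM in hepAGT-/- BAT, with overlap and a difference of 0.03 ± 0.23. Rgs1 at RT missed the threshold with edgeR (-4.13 ± 1.28, adjusted p 0.124) and passed it with DESeq2 (-4.30, adjusted p 0.0116) and without hepAGT+/+ RT replicate 12 (-4.56, adjusted p 0.0157); its hepAGT-/- RT libraries held 4 counts in all and are among those whose Rgs1 change led to the choice.

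The Rgs4 call lay at the edge of the threshold: its log2 difference was at least 1.18 in each of 23 alternatives, but its adjusted p ranged from 0.000128 to 0.212 and 8 of them called it. Leaving out any single RT library other than hepAGT+/+ replicate 12 lost the call, with adjusted p from 0.0569 without hepAGT-/- replicate 14 to 0.212 without hepAGT+/+ replicate 17. It was 0.150 without hepAGT-/- replicate 10, 0.0877 without 19, 0.188 without 9, 0.149 without hepAGT+/+ replicate 15 and 0.168 without 18. It was also lost without hepAGT-/- TN replicate 4 (0.0816) or 5 (0.0742), or hepAGT+/+ TN replicate 6 (0.0771), 7 (0.0750) or 1 (0.0624). RLE scaling (0.0548), a filter of 1 CPM in 4 libraries (0.0550) and a fit of the 2 groups alone (0.0702) lost it too. Vessel transcripts were read in the same libraries. The sum of 5 endothelial markers was 409 to 838 CPM in hepAGT-/- and 133 to 454 CPM in hepAGT+/+ BAT at RT, and the sum of 7 pericyte and smooth muscle markers was 226 to 272 against 112 to 244 CPM. None of those 12 markers passed the threshold, and their part in the Rgs4 result was not tested. The change of the Rgs4 genotype effect with housing was -1.29 ± 0.33 (adjusted p 0.435).

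In hepAGT+/+ BAT, 3 of 10 members were higher at TN past the threshold and none was lower. Of all genes, 15.9% were higher and 32.5% passed in either direction. The members were chosen on measured values, so nothing is read from that count. Groups of 3 members, Rgs1, Rgs4 and Rgs16, did not overlap, against 27.2% of all genes. Rgs4 rose by 0.93 ± 0.23 on the log2 scale (adjusted p 0.00553), and its TN libraries lay above its RT libraries. Rgs4 passed in all 23 alternatives. Rgs5 rose from 358, 343, 380 and 316 CPM to 616, 558, 545 and 320 CPM, a log2 change of 0.55 ± 0.19 (adjusted p 0.0310). Replicate 24 lay among the RT libraries and the other 3 far above them.

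The Rgs5 change ranged from 0.45 to 0.74 in the alternatives and missed the threshold in 6 of 23, with adjusted p up to 0.0934. Those were the fit of the 2 groups alone (0.0546) and the fits without RT replicate 15 (0.0687) or 18 (0.0880) or TN replicate 6 (0.0650), 7 (0.0648) or 1 (0.0934). Endothelial markers rose at TN in hepAGT+/+ BAT for 3 of 5 genes, and pericyte and smooth muscle markers for 4 of 7 (Acta2, Pdgfrb, Notch3 and Myh11). Another 1 of those 7 lay lower at TN without overlap and did not pass, against 14.3% of all genes lower without overlap. The endothelial sum was 871, 872 and 813 CPM in TN replicates 1, 6 and 7 and 261 CPM in replicate 24, and Rgs5, Rgs2 and Rgs3 were also lowest in replicate 24. Whether those vessel transcripts account for Rgs5 was not tested. In hepAGT-/- BAT, Rgs5 read 407, 461, 300 and 417 CPM at RT and 510, 437, 545 and 464 CPM at TN (0.30 ± 0.19), with none of those vessel markers past the threshold.

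In hepAGT-/- BAT, 3 of 10 members passed between temperatures, all higher at TN, against 6.64% of all genes that were higher and 15.2% in either direction; this contrast was among those that led to the choice, so nothing is read from that count. Rgs1 is the member that stood out in those earlier results. It had 2, 0, 2 and 0 counts in the 4 RT libraries, or at most 0.0734 CPM, and 53, 60, 75 and 106 counts at TN, or 1.36, 1.65, 2.09 and 3.08 CPM. The fitted log2 change of 5.73 ± 1.29 rests on 4 counts in the RT group and depends on the prior count of the fit. Whether reads or fragments were counted is not given, so those 4 counts may come from fewer fragments. In hepAGT+/+ BAT, Rgs1 had 0, 0, 30 and 30 counts at RT (0, 0, 1.20 and 1.56 CPM) and 2.34 to 3.56 CPM at TN. Those groups did not overlap, as in hepAGT-/- BAT (27.2% and 21.3% of all genes). The hepAGT+/+ change of 2.08 ± 1.00 had an adjusted p of 0.122.

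Macrophage markers were higher in BAT at TN, with 5 of 5 past the threshold in each genotype. Their sum was 39.4 to 107 CPM at RT and 177 to 426 CPM at TN in hepAGT+/+ BAT, and 47.0 to 53.1 and 161 to 222 CPM in hepAGT-/- BAT. B cell markers summed to 0.553 to 1.24 and 1.82 to 6.15 CPM in hepAGT+/+ BAT and to 0.950 to 9.66 and 1.03 to 5.71 CPM in hepAGT-/- BAT, with none past the threshold. T cell markers summed to at most 1.65 CPM at RT and 1.61 to 9.39 CPM at TN, again with none past it. The part of these cells in the Rgs1 change was not tested.

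**Figure D3:**
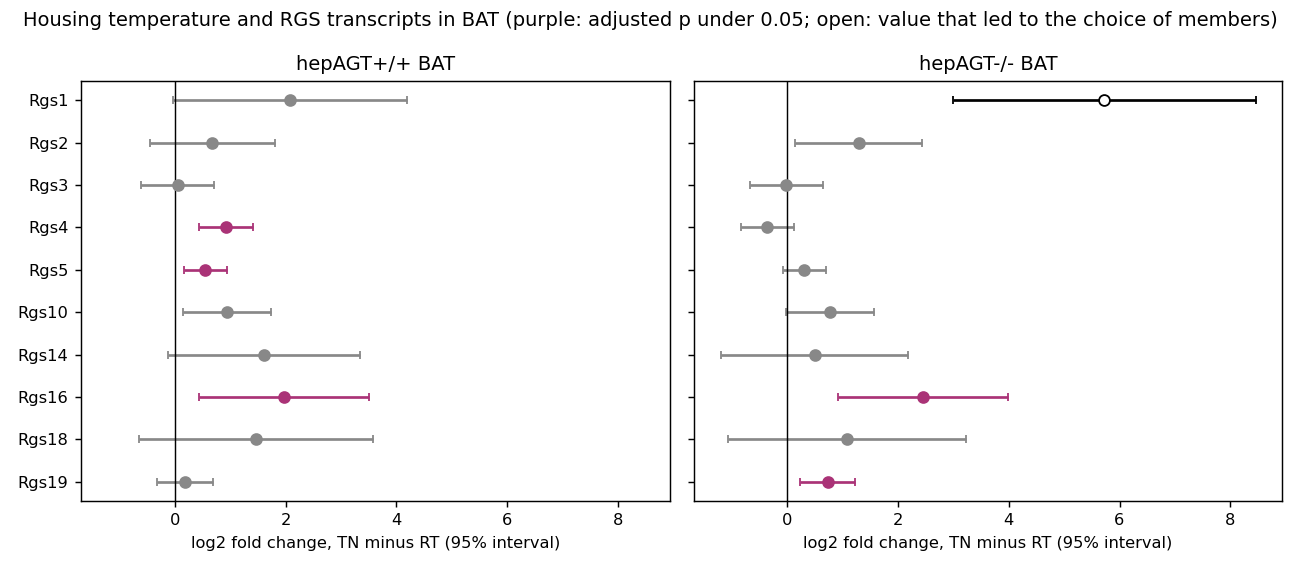
Fitted log2 change from RT to TN of each member in hepAGT+/+ and hepAGT-/- BAT with 95% intervals; purple marks an adjusted p under 0.05 and the open symbol the Rgs1 change that led to the choice of members. Rgs4 and Rgs5 are purple in hepAGT+/+ BAT only, Rgs19 in hepAGT-/- BAT only, and none of the 9 members other than Rgs1 had a difference between the panels that passed its own test (adjusted p of at least 0.435).

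Rgs16 was low in BAT, and its highest libraries were among those with the most hepatocyte transcripts. In hepAGT+/+ BAT it read 0.712, 0.335, 0.320 and 0.626 CPM at RT and 2.07, 1.94, 2.43 and 1.35 CPM at TN, a log2 change of 1.96 ± 0.73 (adjusted p 0.0471) without overlap. In hepAGT-/- BAT it read 1.46, 0.579, 0.257 and 0.0664 CPM at RT and 7.53, 0.717, 1.76 and 3.02 CPM at TN, a fitted change of 2.45 ± 0.73 with overlap. The summed hepatocyte markers were 11.8 to 266 CPM at RT and 77.9 to 786 CPM at TN in hepAGT+/+ BAT, and 4.27 to 593 and 19.0 to 2260 CPM in hepAGT-/- BAT. Baat, a bile acid enzyme of hepatocytes, was the transcript most like Rgs16 in BAT.

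Per 1000 CPM of hepatocyte markers, Rgs16 stood at 0.786 to 10.8 CPM in liver (median 3.45), 1.26 to 53.1 CPM in BAT (median 5.43) and 1.35 to 45.8 CPM in eWAT (median 6.35). Rgs16 is TMM-scaled within a tissue here and the marker sums are on plain library totals. The scaling of each library therefore stays in the ratio, which is a rough guide between libraries and tissues. Within BAT the ratio was 3.33 and 2.24 in the libraries with over 1000 CPM of those markers, hepAGT-/- TN replicates 2 and 5. It was 53.1 in hepAGT+/+ RT replicate 18 and 37.7 in hepAGT-/- TN replicate 3, which held 11.8 and 19.0 CPM of the markers. The part of hepatocyte RNA in the adipose Rgs16 levels was not tested. Without the libraries over 1000 CPM of hepatocyte markers (hepAGT-/- TN replicates 2 and 5), the Rgs16 change in hepAGT-/- BAT was 1.09. Without replicate 2 alone it was 1.62. In that contrast Rgs16 missed the threshold in 7 of 23 alternatives: the fits without hepAGT-/- RT replicate 10, 14 or 19, without TN replicate 2, without either set of marker-rich libraries and with the 2 groups alone.

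The hepAGT+/+ call for Rgs16 was lost in 10 of 23 alternatives, with adjusted p up to 0.120. Single libraries that ended it were RT replicates 12 (0.0513), 15 (0.116), 17 (0.120) and 18 (0.0784), TN replicates 6 (0.0765), 7 (0.0956) and 1 (0.0802), and hepAGT-/- RT replicate 10 (0.0585) and TN replicate 5 (0.0573). It was also lost without the libraries over 1000 CPM of skeletal muscle markers (0.0501).

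**Figure D4:**
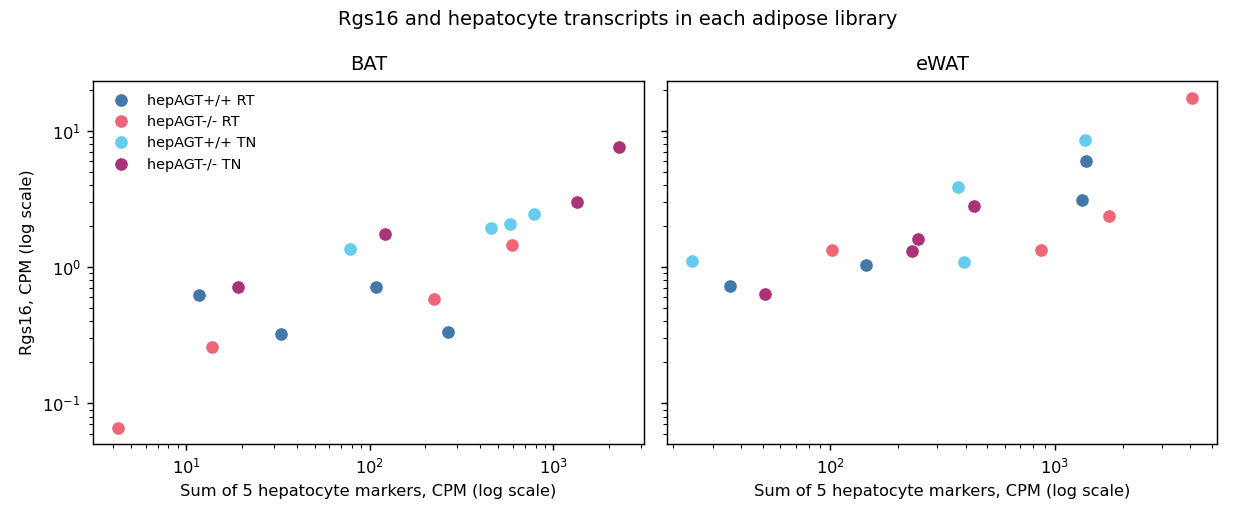
CPM of Rgs16 against the summed CPM of 5 hepatocyte markers in each BAT and eWAT library, both on log axes, coloured by genotype and housing. In each tissue the library with the most hepatocyte transcripts holds the most Rgs16, 7.53 CPM at 2260 in BAT and 17.5 CPM at 4093 in eWAT, while the next eWAT library by hepatocyte transcripts (1748) holds 2.36 CPM.

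Rgs19 read 5.74 to 7.43 CPM in hepAGT-/- BAT at RT and 15.5, 7.58, 10.1 and 10.8 CPM at TN, without overlap (21.3% of all genes). Its fitted change of 0.73 ± 0.24 was 0.43 without hepAGT-/- TN replicates 2 and 5 and 0.51 without replicate 2 alone. It missed the threshold in 12 of 23 alternatives: the fits without hepAGT-/- RT replicate 9, 10, 14 or 19, hepAGT-/- TN replicate 2, 4 or 5, or hepAGT+/+ RT replicate 15, 17 or 18, and those without the libraries over 1000 CPM of hepatocyte or of skeletal muscle markers. In hepAGT+/+ BAT it read 7.30 to 8.16 and 6.54 to 13.4 CPM (0.18 ± 0.24). Rgs2 spread widely in BAT, at 52.1 to 176 CPM in hepAGT+/+ and 30.9 to 89.8 CPM in hepAGT-/- RT libraries and 54.3 to 295 and 73.8 to 257 CPM at TN. Its temperature changes were 0.68 ± 0.53 in hepAGT+/+ BAT (adjusted p 0.346) and 1.29 ± 0.53 in hepAGT-/- BAT, where it missed the threshold with edgeR and passed it with DESeq2 (1.31). The Rgs10 change in hepAGT+/+ BAT was 0.94 ± 0.38 and did not pass (adjusted p 0.0644); it passed with DESeq2 (0.0404) and without RT replicate 15 (0.00772) or TN replicate 24 (0.0375). The Rgs3 changes were 0.05 and -0.02 in hepAGT+/+ and hepAGT-/- BAT, with SEs of 0.31, and changes of up to 0.71 lie within their 95% intervals. Between genotypes at TN, none of the 10 members passed, as for all genes (0%). None had an unadjusted p under 0.05 (5.24% of all genes) or a DESeq2 call. Rgs18 was lower in every hepAGT-/- TN library (0.167 to 0.813 CPM) than in the hepAGT+/+ TN libraries (0.856 to 1.34 CPM), with 6 to 52 counts. Groups of 3.39% of all genes did not overlap there.

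In eWAT, Rgs1 was lower in hepAGT-/- mice at RT, and at TN its values lay lower without passing the test. At RT it read 2.72, 3.11, 4.81 and 6.78 CPM in hepAGT+/+ and 0.358, 1.87, 0.615 and 0.273 CPM in hepAGT-/- eWAT. At TN it read 8.33, 8.71, 3.83 and 5.04 CPM in hepAGT+/+ and 1.46, 1.64, 1.96 and 2.88 CPM in hepAGT-/- eWAT. In neither housing did the genotypes overlap. The RT difference of -2.48 ± 0.52 passed (adjusted p 0.0115, edgeR over 18933 genes), the 1 call among 10 members against 4.34% of all genes, and the 1 member without overlap against 10.9%. The TN difference of -1.70 ± 0.49 did not (adjusted p 0.112, against 0.586% of all genes called, with 4 members at an unadjusted p under 0.05 against 13.7%); it passed with DESeq2 (0.0176) and without hepAGT-/- RT replicate 10 (0.0488).

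The RT call for Rgs1 in eWAT was kept in 21 of 22 alternatives. It was lost without the libraries over 1000 CPM of hepatocyte markers, which left 2 RT mice of each genotype: the difference was then -1.74 with an adjusted p of 0.269. B cell markers summed to 2.72 to 15.2 CPM in hepAGT+/+ and 2.84 to 9.16 CPM in hepAGT-/- eWAT at RT, T cell markers to 3.58 to 4.39 and 3.63 to 11.4 CPM, and none of these 10 genes passed. Macrophage markers summed to 692 to 978 and 509 to 714 CPM, and 1 of 5 was lower in hepAGT-/- eWAT past the threshold. At TN the macrophage sums were 1083 to 1773 and 830 to 985 CPM. Their part in the Rgs1 difference was not tested. Cd83, a surface protein of activated dendritic and B cells, was the transcript most like Rgs1 in eWAT (r = 0.900 over the 16 deviations from group means, among 12967 genes).

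For Rgs1, the F test of the genotype effect over the 3 tissues gave an adjusted p of 0.00897 by edgeR, against 3.88% of all genes called. The fitted hepAGT-/- minus hepAGT+/+ differences were 0.64 and 1.14 in liver at RT and TN, -4.13 and -0.49 in BAT, and -2.48 and -1.70 in eWAT. The BAT value at RT rests on the same 4 counts in the hepAGT-/- group as above, in libraries whose Rgs1 change led to the choice. The test is not independent of that choice, so no difference between tissues is read from it. The 51 alternatives rest mostly on the same libraries, so their calls add nothing (adjusted p 0.0482 with the mouse as a block). The same test of the temperature effect holds the Rgs1 change in hepAGT-/- BAT and is not read for that gene. For Rgs16 the temperature effect differed between tissues at an adjusted p of 0.0497, against 18.3% of all genes called. That call was lost with the mouse as a block (adjusted p 0.309) and was made in 15 of 51 alternatives.

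None of the other members passed a comparison within eWAT. No member passed between temperatures in hepAGT+/+ eWAT (0% of all genes) or in hepAGT-/- eWAT (1.74%). At an unadjusted p under 0.05 these were 2 and 3 members, against 6.99% and 17.5% of all genes, and DESeq2 called none. Rgs1 passed in hepAGT-/- eWAT without RT replicate 10 (2.21, adjusted p 0.0453), from 1.35 and 0.166 with all libraries. Rgs14 was higher at TN than at RT in every library of both genotypes, at 1.47 to 3.21 against 3.27 to 4.05 CPM in hepAGT+/+ and 1.40 to 2.36 against 2.63 to 3.86 CPM in hepAGT-/- eWAT. Its changes were 0.57 ± 0.28 and 0.78 ± 0.28 (adjusted p 0.743 and 0.157). Groups of 4.1% and 9.25% of all genes did not overlap in those contrasts. Rgs18 read 2.70 to 3.12 CPM in hepAGT-/- eWAT at RT and 4.34 to 6.26 CPM at TN, a change of 0.83 ± 0.30 without overlap (adjusted p 0.157).

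Rgs3, with Rgs1 the other member whose genotypes did not overlap in eWAT at TN (9.51% of all genes), read 34.8, 33.2, 41.3 and 36.0 CPM in hepAGT-/- and 27.6, 31.1, 23.2 and 13.3 CPM in hepAGT+/+ mice, and the difference of 0.61 ± 0.28 did not pass (adjusted p 0.346). At RT it was 0.62 ± 0.28 (adjusted p 0.256), and -0.20 once the libraries over 1000 CPM of hepatocyte markers were left out. Rgs16 in eWAT was highest in hepAGT-/- RT replicate 16, at 17.5 CPM with 4093 CPM of hepatocyte markers, or 4.27 CPM per 1000. The other 4 eWAT libraries over 1000 CPM of markers held 8.48 CPM of Rgs16 (hepAGT+/+ TN replicate 8), 5.96 (hepAGT+/+ RT replicate 18), 3.11 (hepAGT+/+ RT replicate 13) and 2.36 (hepAGT-/- RT replicate 19), or 6.24, 4.34, 2.36 and 1.35 CPM per 1000. Rgs19 was the most even member in eWAT, at 21.7 to 32.5 CPM over all 16 libraries, with differences between groups of at most 0.21 on the log2 scale and SEs of 0.12.

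**Figure D5:**
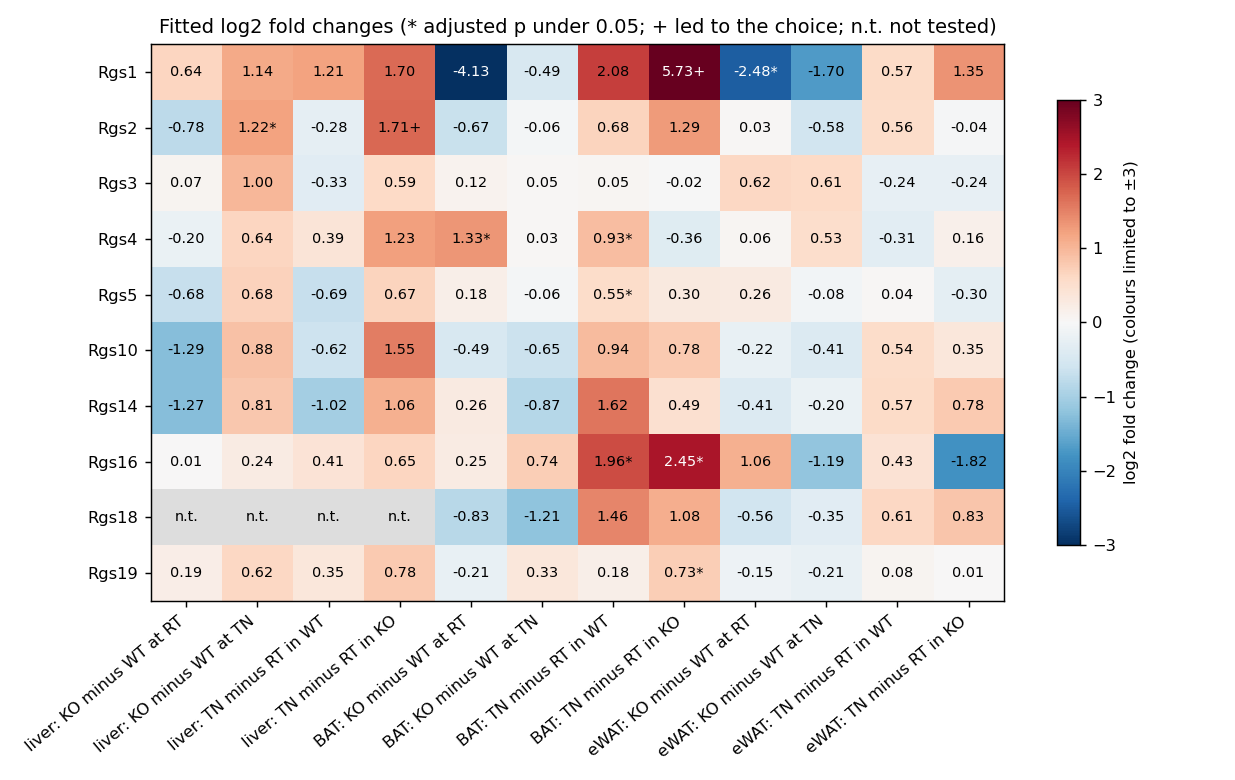
Fitted log2 fold changes of each member in 12 comparisons, where WT is hepAGT+/+ and KO is hepAGT-/-; an asterisk marks an adjusted p under 0.05, a plus sign a value that led to the choice of members, and n.t. a gene not tested. Asterisks fall on Rgs2 in liver, on Rgs4, Rgs5, Rgs16 and Rgs19 in BAT and on Rgs1 in eWAT. The Rgs2 asterisk shares its hepAGT-/- TN livers with a change marked by a plus sign.

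Whether genotype effects changed with housing was tested within each tissue. No member passed in liver, BAT or eWAT, and no gene did (0% in each). At an unadjusted p under 0.05 there were 3, 2 and 0 members, against 7.33%, 10.2% and 7.6% of all genes. DESeq2 called 1, Rgs2 in liver; that contrast holds the hepAGT-/- change that led to the choice of Rgs2, so nothing is read from the call.

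Other genes of the same signalling step were read from lists chosen alongside the members. Of 11 further RGS genes, 5 were tested in liver, 5 in BAT and 6 in eWAT. Rgs7, an R7 member known mainly from neurons, fell at TN in BAT from 74.6 ± 4.66 to 34.8 ± 6.48 CPM in hepAGT+/+ mice and from 67.3 ± 10.2 to 29.7 ± 8.08 CPM in hepAGT-/- mice (log2 changes of -1.10 ± 0.19 and -1.18 ± 0.19, adjusted p 0.000277 and 0.000394). Rgs12 rose there in hepAGT+/+ mice, from 3.00 ± 0.68 to 8.16 ± 3.12 CPM (1.44 ± 0.28, adjusted p 0.000825). None of the other 9 passed in any comparison in which it was tested.

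Of the G-protein alpha subunits on which RGS proteins act, 12 of 13 were tested in BAT, and at TN 2 rose and 3 fell in hepAGT+/+ and 1 rose and 2 fell in hepAGT-/- mice, where 32.5% and 15.2% of all genes passed in either direction. Gnas, whose product couples beta-adrenergic receptors to cAMP and is not a substrate of these RGS proteins, fell by 1.10 ± 0.19 and 0.87 ± 0.19 on the log2 scale in hepAGT+/+ and hepAGT-/- BAT. Gnai2, which encodes an inhibitory subunit and is abundant in leukocytes, rose by 1.30 ± 0.20 and 0.69 ± 0.20. Both passed in hepAGT+/+ BAT in all 23 alternatives. In hepAGT-/- BAT the Gnas call was lost without the libraries rich in hepatocyte markers (adjusted p 0.0744), and the Gnai2 call in 6 of 23 alternatives, with adjusted p up to 0.160: without RT replicate 10, 14 or 19, without TN replicate 2, and without the libraries rich in hepatocyte or in muscle markers. Of the 15 beta and gamma subunits, 11 were tested in BAT, and 2 rose and 3 fell in hepAGT+/+, and 3 rose and 1 fell in hepAGT-/- mice, against the same 32.5% and 15.2%. Of 7 receptor kinases and arrestins, Arrb2 rose at TN in both (1.47 ± 0.21 and 0.64 ± 0.21, adjusted p 8.36e-05 and 0.0470). The hepAGT-/- call was made in 13 of 23 alternatives. It was lost without RT replicate 10, 14 or 19, TN replicate 2 or 5, or hepAGT+/+ RT replicate 15 or 17, with no filter, and without the libraries rich in hepatocyte (0.279) or muscle markers (0.130). Of 10 other G-protein modulators, Gpsm3 rose in hepAGT+/+ BAT (1.57 ± 0.34, adjusted p 0.00194).

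Outside BAT few of the listed genes passed. In liver, Gna11, an alpha subunit of the Gq family, was lower by 0.43 ± 0.12 and Arrb2 higher by 0.63 ± 0.17 in hepAGT-/- mice at TN (adjusted p 0.0437 and 0.0407). Leaving out any 1 of the 8 TN livers ended both calls, with adjusted p up to 0.118 and 0.122, as did leaving out hepAGT-/- RT replicate 10. The Gna11 call was also lost without hepAGT-/- RT replicate 9, 16 or 19 or hepAGT+/+ RT replicate 11, with no filter and with the 2 groups alone, and was made in 6 of 21 alternatives, against 12 for Arrb2. In eWAT at RT, Gnb2 was higher by 0.45 ± 0.10 and Arrb1 lower by 0.63 ± 0.12 in hepAGT-/- mice (adjusted p 0.0216 and 0.00697). Both calls were lost without the libraries rich in hepatocyte markers (0.318 and 0.205), and that of Gnb2 also without hepAGT-/- RT replicate 19 (0.0682) or hepAGT+/+ RT replicate 15 (0.0593) or 18 (0.0587). Between TN and RT in hepAGT-/- eWAT, which shares those 4 RT libraries, Gnb2 was -0.45 ± 0.10 and Arrb1 0.83 ± 0.12. The Gnb2 call there was lost in 8 of 22 alternatives (adjusted p up to 0.147): without RT replicate 9, 10 or 19, TN replicate 3, 4 or 21 or the hepatocyte-rich libraries, and with the 2 groups alone. The Arrb1 call was lost in 3 (up to 0.0735): without TN replicate 3 or the hepatocyte-rich libraries, and with the 2 groups alone. No other listed gene passed in liver or eWAT.

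For members with a call, the transcripts whose deviations from the group means followed theirs most closely over the 16 libraries of a tissue were read off as a description. For Rgs2 in liver these were Apol9a (r = 0.891), Spi1 (0.887), a transcription factor of myeloid and B cells, and Zbp1 (0.866), a sensor induced by interferon. For Rgs5 in BAT they were Serpinb9 (0.926), Zdhhc20 (0.926) and Clec14a (0.914), a protein of endothelial cells. For Rgs4 in BAT they were Enpp4 (0.883), Adora2a (0.881), an adenosine receptor, and Arfgap1 (0.868). For Rgs16 in BAT, Baat (0.910) was followed by Ttc39c (0.900) and Sema4g (0.893), and for Rgs19 in BAT the first was Gnal (0.890), which encodes a stimulatory alpha subunit. The points share library depth and tissue makeup, and genes with a mean under 1 CPM were left out.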

How the data were processed

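Bulk mRNA libraries of 48 tissue samples (3 tissues, 12 groups of 4 mice) were sequenced in paired-end mode, per the labels' protocols. The deposited values are raw counts per gene, made by the authors with fastp, STAR 2.6.1d and featureCounts 1.5.0-p3 on GRCm38, per the submitters' processing notes. The annotation release, the strand setting and whether fragments or reads were counted are not given in the sources used here. GENCODE M21 named 52073 of 56748 identifiers, all 10 members among them.

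Counts were analysed with edgeR 4.0.16 in R 4.3.3 (filterByExpr with a minimum count of 10, TMM scaling, robust quasi-likelihood tests, two-sided, Benjamini-Hochberg adjustment over all genes tested, threshold 0.05). Each tissue was fitted over its 16 libraries, and all 48 for contrasts between tissues. CPM are TMM-scaled within a tissue, while marker sums use plain library totals. DESeq2 1.42.0, other scaling and filters, single left-out libraries and a mouse block were alternatives. The procedure was tested on simulated data. Depth was 23.7 to 43.7 M counts per library, and the spread over 4 mice sets the precision. The members, gene lists and markers were chosen with earlier results of these data known. Named pathway genes had passed the threshold with a mean of at least 1 CPM.

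The labels number biological replicates, the numbers are shared across tissues, and they are taken here as mouse numbers. Of 35 same-numbered pairs of libraries, 1 had a correlation of deviations over 0.1 (median 0.00662, highest 0.122). Among 157 other pairs, 11 did (median -0.00332, highest 0.223).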

Additional observations from a re-analysis of the deposited data

Results flagged for a closer look

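In liver, Rgs5 stood apart in hepAGT-/- TN replicate 4, at 55.9 CPM against 25.2 to 27.3 CPM in the other 3 livers of that group. In eWAT, Rgs16 stood apart in hepAGT-/- RT replicate 16, at 17.5 CPM against 1.33 to 2.36 CPM in the other 3 libraries. Each gap passed Dixon's 95% limit for 4 samples, a limit that chance passes in about 1 of 20 groups. Of 116 groups examined, these 2 passed it, fewer than that rate gives. The effect of housing temperature differed between the 3 tissues for Rgs16 (adjusted p 0.0497) by edgeR's F test over all 48 libraries, a call that was lost with the mouse block (0.309) and made in 15 of 51 alternatives. For Rgs1 the same test of the genotype effect gave an adjusted p of 0.00897. It holds hepAGT-/- BAT libraries whose Rgs1 change led to the choice of Rgs1, so no difference between tissues is read from it.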

How the results depend on the processing

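No paired analysis was possible because groups of one tissue share no mouse number, apart from the tests between tissues. There, with the mouse number as replicate block, the temperature test called 1 member in place of 2, and 1 with no filter on low counts; the member lost was Rgs16, and nothing is read from the other, Rgs1, whose hepAGT-/- BAT change led to its choice. The block changed no other call of a member. DESeq2 called 2 members in liver TN minus RT in hepAGT-/-, 1 in the liver interaction, 2 in BAT between genotypes at RT and 1 in eWAT between genotypes at TN. The first count (Rgs1 and Rgs2) and the second (Rgs2) hold the change that led to the choice of Rgs2, and nothing is read from them. The same holds for the member counts given below for TN minus RT in hepAGT-/- liver and BAT. Fitting only the groups compared called 0 in liver TN minus RT in hepAGT-/- and 0 in BAT between genotypes at RT, where RLE scaling and the filter of 1 CPM in 4 libraries also called 0. Leaving out libraries over 1000 CPM of hepatocyte or of skeletal muscle markers, alternatives chosen after seeing the data, each called 1 in BAT TN minus RT in hepAGT-/-. The former called 0 in eWAT between genotypes at RT and turned the Rgs3 difference there to -0.20 (adjusted p 0.837).

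Leaving out 1 library at a time gave 0 to 1 members in liver between genotypes at TN and in liver TN minus RT in hepAGT-/-, 0 to 2 in BAT between genotypes at RT, 1 to 4 in BAT TN minus RT in hepAGT+/+, 1 to 3 in hepAGT-/- BAT, 0 to 1 in eWAT between genotypes at TN and in eWAT TN minus RT in hepAGT-/-, 9 to 10 in BAT minus eWAT, and 1 to 2 in the temperature test. Over all genes, the calls moved from 16 to between 0 and 1979 in BAT between genotypes at RT, from 560 to between 178 and 605 in liver at TN, from 821 to between 287 and 883 in eWAT at RT and from 111 to between 1 and 238 at TN. In liver TN minus RT in hepAGT-/- they moved from 20 to between 0 and 153, and in eWAT TN minus RT in hepAGT-/- from 330 to between 0 and 642. DESeq2 called 981, 1111, 1509, 675, 362 and 1154 genes in these 6 comparisons, in that order. Without the libraries rich in hepatocyte markers, 1101 genes in place of 2735 passed in BAT TN minus RT in hepAGT-/-, and 0 in place of 821 in eWAT between genotypes at RT. The mouse block called 2197 in place of 4009 genes in the temperature test and 166 in place of 850 in the genotype test. The cause was not tested. Among members tested in a tissue, Rgs1, Rgs14, Rgs16 and Rgs18 in BAT, Rgs4 and Rgs14 in liver and Rgs1 in eWAT had under 10 counts in some libraries. The part of depth in their tests was not tested.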
